A study of Homo sapiens with 9 samples.

Results

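The clustered histone genes encode the core histones H2A, H2B, H3 and H4 and the linker histone H1. They were taken here as every probe set that the platform annotation gives to a single gene symbol, where that symbol is H1-1 to H1-6 or begins with H2AC, H2BC, H3C or H4C and a number. A probe set is the group of short probes that together give 1 value for a transcript. The rule found 51 probe sets of 45 genes among 54613 probe sets without array controls. They comprised 7 probe sets of H1 genes, 11 of H2A genes, 15 of H2B genes, 8 of H3 genes and 10 of H4 genes. The rule also takes in 2 pseudogenes, H2AC5P and H4C10P, and H2BC12L, which carries a cluster name but lies outside the histone clusters. A further 20 probe sets that the annotation gives to several genes, at least 1 of them a clustered histone gene, were not members.

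RNA of U87, a cell line established from a human glioma, was read on 9 Affymetrix arrays. Each sample of 100000 cells received a miRNA duplex at 50 nM and was collected 24 h later, with delivery by Lipofectamine RNAiMAX, a lipid reagent. The 3 groups were miR-376a*A, miR-376a*G and a control miRNA, each with 3 biological replicates. All groups therefore share the cell line, the reagent, the dose and the time, and untransfected cells were not analysed here. In published work the A form is the unedited miRNA, and the G form stands for the product of A-to-I editing, in which inosine pairs like G. RefSeq (GRCh38.p14) lists hsa-miR-376a-5p, the current name of miR-376a*, on chromosome 14 (chr14:101040788-101040809, plus strand). It is shown because it identifies the transfected molecule. The capitals mark the seed, bases 2 to 8, and the labels do not give the duplexes' own sequences.
hsa-miR-376a-5p: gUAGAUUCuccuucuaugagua

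Clustered histone genes are transcribed mainly in S phase, when newly made DNA is packed into nucleosomes. Most of their messages end in a stem-loop that is bound by the protein SLBP, rather than in a poly(A) tail, and are degraded when DNA synthesis stops. Some clustered genes also give polyadenylated messages. Per the labels' protocols the labelling reaction began with oligo(dT) priming, which selects polyadenylated RNA. The signals below therefore need not follow the total histone message, and the share of each kind of message was not tested. In a bulk sample a change in the share of cells in S phase and a change of message per cell cannot be told apart.

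Histone promoters carry short family-specific motifs, and the promoters of the members were read from RefSeq (GRCh38.p14) as windows of 300 bases that lie mostly upstream of the start. An entry was found for 40 of the 45 genes, 38 on chromosome 6 and 2 (H2AC25 and H2BC21) on chromosome 1. The motifs were searched on both strands. One was CCAAT, which binds the factor NF-Y. Another was the octamer known from H2A and H2B genes, ATTTGCAT. The TATA box was searched as TATAAA, which can overlap its own match on the opposite strand. The last was AAACACA, the H1 box of linker histone genes. The NF-Y motif CCAAT was found in 35 of the 40 promoters (87.5%), against 34.6% of all 35116 promoters in the table. The octamer was found in 16 (40%), against 1.77% of all promoters, and TATAAA in 27 (67.5%), against 11.5%. The octamer matches lay in 10 of 13 H2B and 6 of 8 H2A promoters and in 0 of 6 H1, 0 of 6 H3 and 0 of 7 H4 promoters. AAACACA was found in 6 of 6 H1 promoters and in none of the other families' promoters, against 5.64% of all promoters. CCAAT was in 2 of 7 H4 promoters and in every promoter read from the other families. A match is a description of the letters and not a site of binding.

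The promoters of 3 members are shown because these genes mark the range of the results: H2BC12 had the brightest signal, H3C7 the largest difference from the control on the scale used, and H2BC21 was the only tested member that passed as lower than the control. The capitals mark the 4 motifs on either strand. H2BC12 is at chr6:27146809-27147108, H3C7 at chr6:26250586-26250885 and H2BC21 at chr1:149886633-149886932 (GRCh38.p14), all on the minus strand and written in the direction of the gene. The octamer occurs in both H2B promoters and not in that of H3C7.
H2BC12: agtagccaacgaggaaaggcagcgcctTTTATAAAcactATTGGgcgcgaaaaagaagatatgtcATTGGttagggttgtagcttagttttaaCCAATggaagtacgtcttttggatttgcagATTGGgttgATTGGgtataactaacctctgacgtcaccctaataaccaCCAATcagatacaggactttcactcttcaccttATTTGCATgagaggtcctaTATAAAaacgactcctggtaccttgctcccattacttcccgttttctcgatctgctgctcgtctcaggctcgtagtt
H3C7: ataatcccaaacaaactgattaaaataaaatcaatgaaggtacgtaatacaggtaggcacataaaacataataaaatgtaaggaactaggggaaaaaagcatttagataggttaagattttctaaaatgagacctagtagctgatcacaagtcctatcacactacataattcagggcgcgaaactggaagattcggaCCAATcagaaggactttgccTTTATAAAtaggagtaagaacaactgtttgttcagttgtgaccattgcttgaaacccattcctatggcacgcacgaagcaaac
H2BC21: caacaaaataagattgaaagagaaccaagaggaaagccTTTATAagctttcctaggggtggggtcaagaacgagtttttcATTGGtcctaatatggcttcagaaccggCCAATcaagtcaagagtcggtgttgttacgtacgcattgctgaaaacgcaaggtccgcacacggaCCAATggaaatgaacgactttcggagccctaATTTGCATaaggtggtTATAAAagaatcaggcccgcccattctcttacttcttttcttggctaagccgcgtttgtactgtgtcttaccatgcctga

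All arrays were on a common scale, with a trimmed mean signal of 100.01 and median signals between 18.0 and 20.4. The labelled cell type was checked on 10 genes typical of mesenchymal glioma lines, such as VIM, CD44 and FN1: 9 had a median signal of 100 or more, and NES had 72.1. The mature astrocyte gene GFAP had a median signal of 1.54, while the astrocyte transporter gene SLC1A3 had 176. Of genes known as lost or silent in U87, CDKN2B had 1.58, MTAP 17.6 and CDKN2A 30.8. Signals of the leukocyte markers PTPRC, CD3D and LYZ lay between 2.06 and 16.03, and those of 4 epithelial markers between 0.71 and 20.5. The ratio of 3' to 5' signal of the GAPDH control probe sets, a sign of RNA integrity, was 0.866 to 0.882 with miR-376a*G, 0.890 to 0.896 with miR-376a*A and 0.886 to 0.907 in the control. That of ACTB overlapped between the groups, at 0.899 to 0.908, 0.869 to 0.906 and 0.882 to 0.902. The summed signal of 5 astrocyte genes was 181 to 217 with miR-376a*G, 231 to 252 with miR-376a*A and 235 to 310.4 in the control, and that of the 4 epithelial markers 21 to 28.6, 27.1 to 36.2 and 29.5 to 41.2. That of the 3 genes lost or silent in U87 was 43.7 to 45.0, 54.2 to 64.8 and 47.4 to 59.7. These sums all lay apart below the control on the miR-376a*G arrays, on which most histone signals were higher. The sum of the 10 glioma genes was 15679.9 to 16703.9, 17937.5 to 19757.5 and 16429.2 to 17991.2 in the same order of groups. That of the 3 leukocyte markers overlapped between the groups. The part of these values in the results was not tested.

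Members were sorted by their mean signal over the 9 arrays: 7 probe sets of 6 genes were bright (100 or more), 30 were intermediate and 14 were dim. Dim members lay below the filter on low signals, the 40th percentile of all probe sets (a signal of 11.3), and were not tested in the main analysis. H2BC12, an H2B gene, was by far the brightest at a mean signal of 770, followed by H2BC12L at 269.9, the linker histone gene H1-2 at 246 and H2BC6 at 129. The H3 and H4 members had no bright probe set and reached at most 33.8 (H3C7) and 73.4 (H4C11). These signals set probe sets of different sequence side by side only to class them, since signal is not comparable between probe sets. Of the 37 tested probe sets 9 have a name ending in x_at and 4 in s_at, the maker's marks for probes that can match several similar transcripts. Near-identical histone genes may share signal in them.

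The plain result over the 3 groups was that histone signals were highest with miR-376a*G. Differences were tested with limma on log2(signal + 16) over all 32768 probe sets that passed the filter, and a probe set passed at an adjusted p under 0.05. Against the control, 21 of the 37 tested histone probe sets rose with miR-376a*G and 1 fell, while 11.5% of all tested probe sets passed as higher and 14.3% as lower (25.8% in either direction). With miR-376a*A 12 rose and 1 fell, against 10.3% and 11.1% of all tested (21.3% in either direction). Between the forms, 11 were lower with miR-376a*A and 0 higher, against 7.95% and 10.2% of all tested (18.1% in either direction). The 3 median log2 differences of the 37 were 0.41, 0.23 and -0.23, while those of all tested probe sets were -0.02, 0.02 and 0.03. The comparisons with the control share its 3 arrays.

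**Figure D1:**
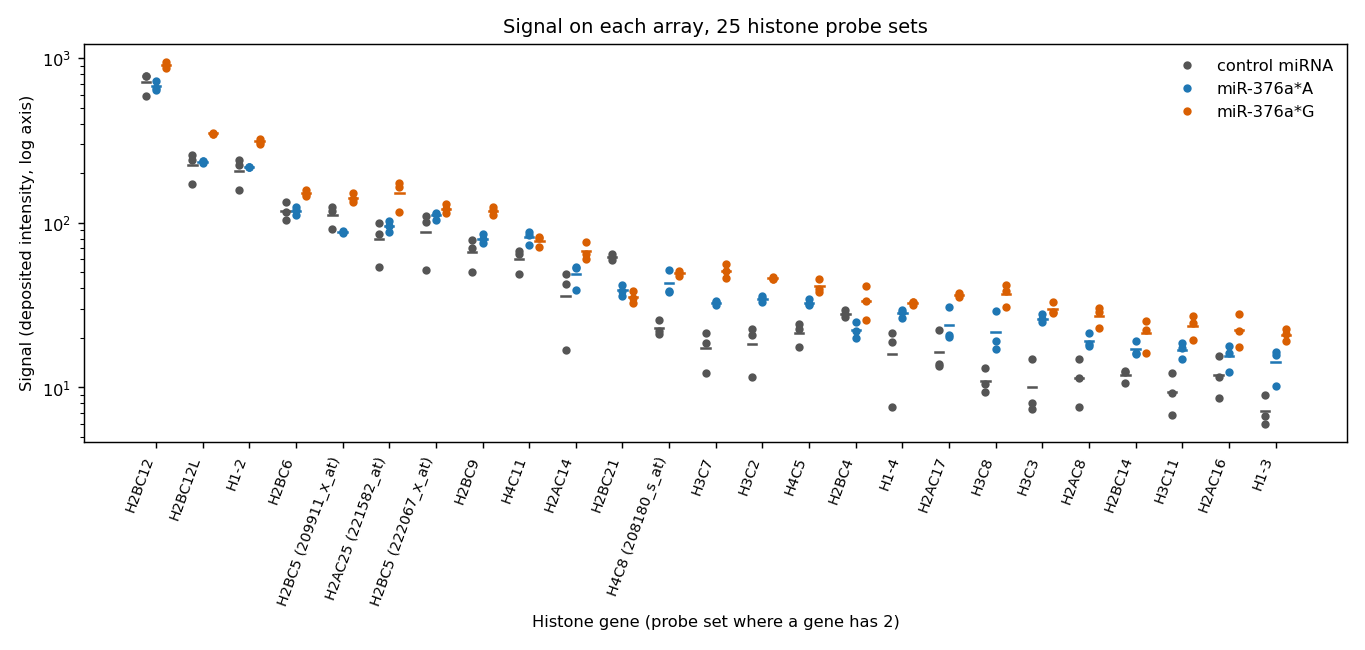
Signal on each of the 9 arrays (deposited intensity, log axis) for the 25 histone probe sets whose values are described singly, ordered by mean signal; points are arrays and short bars are group means (n = 3). The miR-376a*G points lie above the control points for most genes, and H2BC21 shows the opposite order.

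Each array's share in this pattern was read from its median log2 deviation from the mean of all 9 arrays. Over the 37 tested members this was -0.36, -0.10 and -0.12 on control replicates 1, 2 and 3, 0.00, -0.00 and 0.01 with miR-376a*A, and 0.23, 0.25 and 0.19 with miR-376a*G. The control arrays were thus uneven, and the miR-376a* arrays were close to each other within each group. Control replicate 1 held the lowest signal of 21 of the 37 members. Over all tested probe sets that array held the lowest value in 18.9% and the highest in 22.6%, so it stood apart in both directions. Without it 20 histone probe sets rose with miR-376a*G and 7 with miR-376a*A, and the median differences were 0.38 and 0.09.

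**Figure D2:**
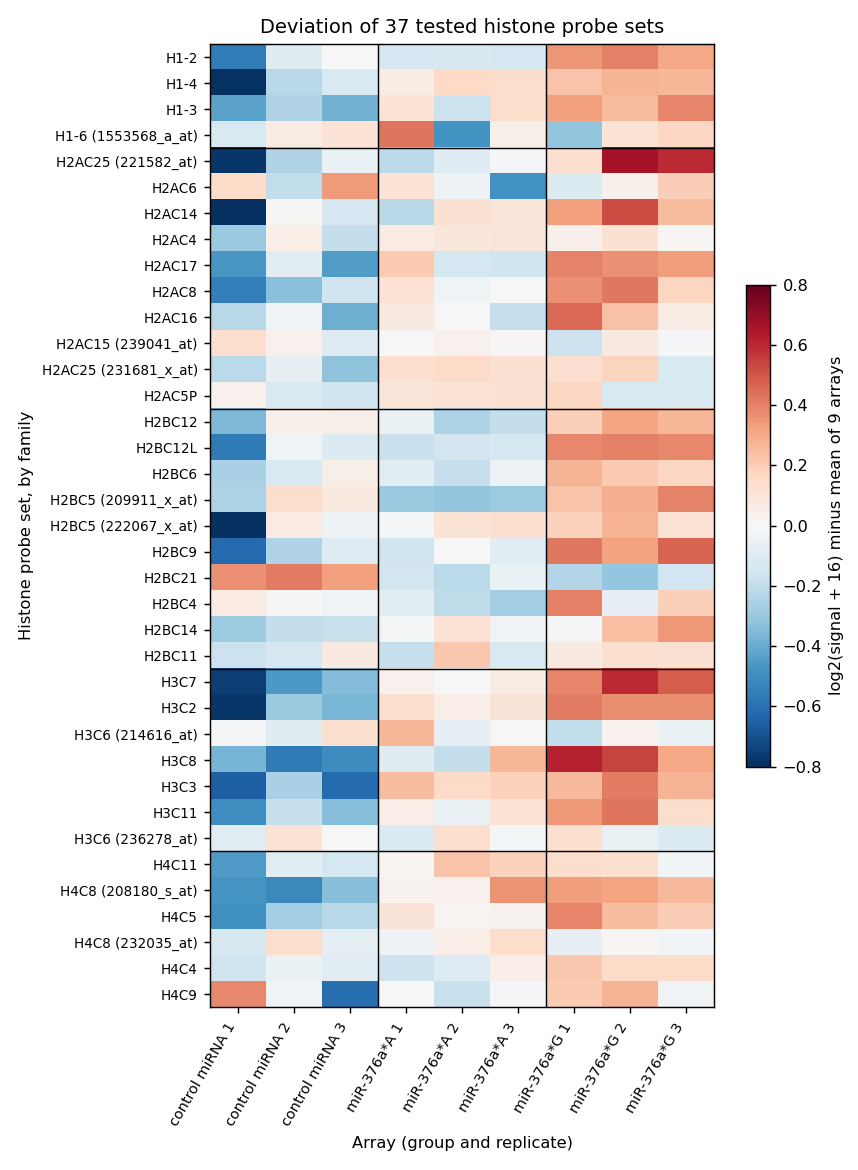
Deviation of log2(signal + 16) from the mean of the 9 arrays for each of the 37 tested histone probe sets (rows, grouped by family) on each array (columns, grouped by transfection); the colour scale ends at -0.8 and 0.8. Blue is below and red above that mean; control replicate 1 holds the lowest value in 21 rows, and the 3 miR-376a*G columns are mostly red.

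Among the 7 bright probe sets 6 rose with miR-376a*G, against 11.5% of all tested, and 0 passed with miR-376a*A, against 21.3%. Their median log2 differences were 0.46 and 0.08, and without control replicate 1 they were 0.25 and -0.083. The names of the H2BC12L, H2BC6 and both H2BC5 probe sets end in x_at. Similar H2B transcripts may share signal in them, so these rises need not be separate. H2BC12 signal was 591, 783 and 787 on the control arrays, 731, 639 and 664 with miR-376a*A, and 872, 949.7 and 917 with miR-376a*G. The miR-376a*G arrays all lay above the other 6, and the miR-376a*A and control arrays overlapped. The log2 difference was 0.35 ± 0.0995 (SE) for miR-376a*G against control (adjusted p = 0.0218), -0.08 ± 0.0995 for miR-376a*A against control (adjusted p = 0.633) and -0.42 ± 0.0995 between the forms (adjusted p = 0.0103). The rise was 1.27-fold, among the smaller ones called. Its rise with miR-376a*G did not pass without miR-376a*G replicate 2 or 3. Without control replicate 1 that rise was 0.21 (adjusted p = 0.025), and H2BC12 passed as lower with miR-376a*A (-0.21, adjusted p = 0.0317).

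H2BC12L, an H2B gene whose name is derived from H2BC12, had signals of 173, 257 and 243 in the control, 231, 237 and 238 with miR-376a*A, and 349, 353 and 349 with miR-376a*G. The spread within the miR-376a*G group was very small, 350 ± 2.46 (SD, n = 3), and the control's was wide at 224 ± 45.2 (SD, n = 3). It rose 1.54-fold with miR-376a*G (log2 difference 0.63 ± 0.112, SE, adjusted p = 0.00131) and differed between the forms by -0.55 (adjusted p = 0.00446). H1-2, the only linker histone gene among the bright members, gave 158, 225 and 240 in the control, 219, 220 and 217 with miR-376a*A, and 312, 325 and 302 with miR-376a*G. H1-2 rose 1.49-fold with miR-376a*G (0.57 ± 0.116, SE, adjusted p = 0.00301) and stood at 0.09 with miR-376a*A (95% interval -0.16 to 0.34). Without control replicate 1 the miR-376a*A value turned to -0.083 in both genes. Both kept their miR-376a*G calls, against control and against miR-376a*A, under every setting tried.

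H2BC6 had signals of 105, 117 and 133 in the control, 120, 111 and 124 with miR-376a*A, and 158, 151 and 146 with miR-376a*G. It rose 1.25-fold with miR-376a*G (adjusted p = 0.0169), and its miR-376a*A signals lay within the control range at a log2 difference of 0.01 (95% interval -0.18 to 0.20). Its rise was not called without miR-376a*G replicate 1 or 2. H2AC25, an H2A gene of the chromosome 1 set, had signals of 54.1, 85.5 and 99.8 in the control, 87.7, 95.7 and 103 with miR-376a*A, and 116, 175 and 166 with miR-376a*G. It showed the largest bright difference, 1.77-fold (0.82 ± 0.172, SE, adjusted p = 0.00359), and also a wide spread. A dimmer H2AC25 probe set did not rise with miR-376a*G (0.26 ± 0.112, SE, adjusted p = 0.105) and passed with miR-376a*A (0.34 ± 0.112, SE, adjusted p = 0.0486).

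H2BC5 had 2 bright probe sets that differed. The brighter one gave 91.7, 125 and 119 in the control, 88.2, 87.04 and 89.1 with miR-376a*A, and 134, 140 and 153 with miR-376a*G. All 3 miR-376a*A arrays lay below the control, with a log2 difference of -0.29 ± 0.1 (SE) that did not pass (adjusted p = 0.06), and miR-376a*G rose by 0.32 (adjusted p = 0.0336). The forms differed here by -0.60 (adjusted p = 0.00103), the largest difference between them among the tested histone probe sets. The dimmer one gave 51.9, 110 and 101 in the control, 104, 114 and 116 with miR-376a*A, and 121, 130 and 114 with miR-376a*G, and passed in no comparison. Its low value on control replicate 1 sets most of its spread, and it rose with both forms when control replicate 2 was left out (0.51, adjusted p = 0.0496, and 0.63, adjusted p = 0.0175). Without control replicate 1 the brighter probe set passed as lower with miR-376a*A (-0.40, adjusted p = 0.00211) and did not pass with miR-376a*G (0.20, adjusted p = 0.0639). Its rise with miR-376a*G also ended without miR-376a*G replicate 2 or 3 (adjusted p = 0.0824 and 0.126), and under 5 of the settings tried in all.

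Of the 7 tested probe sets of H3, the histone whose tail carries many regulatory marks, 5 rose with both forms. Over all tested probe sets 10.3% rose with miR-376a*A and 11.5% with miR-376a*G. For H3C3, H3C8 and H3C11 the control mean lay below the filter, so they entered the test only through their higher groups. H3C7 signal was 12.3, 18.7 and 21.5 in the control, 33.0, 31.8 and 33.7 with miR-376a*A, and 46.5, 56.1 and 50.8 with miR-376a*G, so that none of the groups overlapped. It rose 1.47-fold with miR-376a*A (0.55 ± 0.111, SE, adjusted p = 0.00363) and 2.02-fold with miR-376a*G (1.01 ± 0.111, SE, adjusted p = 3.1e-05), and differed between the forms by -0.46 (adjusted p = 0.0122). On this scale it was the only tested histone probe set that passed with a difference of at least 2-fold. As the offset of 16 is close to such signals, it shrinks the folds of dim genes. Which offset comes closer to the true folds was not tested. With an offset of 1, 11 of the 25 probe sets described singly were past 2-fold with miR-376a*G. These were led by H3C8 (1.66, adjusted p = 0.000173), H3C3 (1.53, adjusted p = 0.000389) and H3C7 (1.53, adjusted p = 7.28e-05). As most of the 25 were picked because they passed in these data, this number is no share of the histone members. The share of all tested probe sets past 2-fold at that offset was not counted.

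H3C2 followed the same order, with 11.6, 22.6 and 20.8 in the control, 36.0, 33.2 and 34.9 with miR-376a*A, and 47.1, 45.5 and 45.4 with miR-376a*G. H3C8 gave 13.1, 9.40 and 10.53 in the control, 19.2, 17.0 and 29.2 with miR-376a*A, and 41.8, 38.7 and 30.7 with miR-376a*G. In both genes the groups lay apart in that order. H3C2 rose by 0.58 and 0.87 (adjusted p = 0.004 and 0.00017), and H3C8 by 0.47 and 0.97 (adjusted p = 0.0211 and 0.000161) with the A and G form. Between the forms H3C8 passed (-0.50, adjusted p = 0.0191) and H3C2 did not (-0.29, adjusted p = 0.111).

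H3C3 had nearly the same signal with both forms: 7.41, 14.8 and 8.07 in the control, 27.8, 25.002 and 26.0 with miR-376a*A, and 28.2, 33.0 and 28.6 with miR-376a*G. It rose by 0.71 ± 0.116 (SE, adjusted p = 0.000907) with miR-376a*A and by 0.82 (adjusted p = 0.00022) with miR-376a*G. The difference between the forms was -0.12 with a 95% interval of -0.37 to 0.13. H3C11 was dimmer, at 6.76, 12.2 and 9.32 in the control, 17.3, 14.9 and 18.7 with miR-376a*A, and 24.8, 27.2 and 19.4 with miR-376a*G. It rose by 0.38 (adjusted p = 0.0346) and 0.65 (adjusted p = 0.00134), and the first of these calls ended under 10 of the settings tried. Neither H3C6 probe set passed in any comparison, with log2 differences between -0.08 and 0.14.

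Genes of H4, the partner of H3 in the nucleosome core, rose in part. The brighter H4C8 probe set gave 22.2, 21.1 and 25.9 in the control, 38.2, 38.4 and 52.1 with miR-376a*A, and 51.0, 50.0 and 47.5 with miR-376a*G. Both forms lay above the control and overlapped with each other, with rises of 0.59 (adjusted p = 0.00169) and 0.75 (adjusted p = 0.000226). A second probe set of H4C8 gave 0.07 and -0.00 and did not pass. H4C5 gave 17.5, 22.7 and 24.3 in the control, 34.5, 31.8 and 32.0 with miR-376a*A, and 45.8, 39.9 and 37.8 with miR-376a*G. It rose by 0.38 (adjusted p = 0.0162) and 0.61 (adjusted p = 0.000711). H4C11 reached 73.6, 88.0 and 84.7 with miR-376a*A, above 48.7, 67.4 and 64.4 in the control, and rose by 0.37 (adjusted p = 0.027). With miR-376a*G its signals of 81.8, 80.7 and 71.3 were also above the control, at 0.31 (adjusted p = 0.0511).

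The linker histone genes H1-4 and H1-3 rose with both forms. H1-4 gave 7.64, 19.0 and 21.6 in the control, 26.6, 29.6 and 28.9 with miR-376a*A, and 31.9, 33.2 and 33.2 with miR-376a*G. It rose by 0.50 (adjusted p = 0.0275) and 0.63 (adjusted p = 0.0063), and the first value was 0.29 without control replicate 1 (adjusted p = 0.0464). H1-3 gave 5.97, 9.05 and 6.70, then 15.8, 10.2 and 16.5, then 21.04, 19.1 and 22.7 in the same order of groups. It rose by 0.37 (adjusted p = 0.0332) and 0.67 (adjusted p = 0.000887), although its A-form call ended under 8 of the settings tried, among them leaving out control replicate 1 or 3. Whether H1-2 differs from H1-3 and H1-4 in its response to miR-376a*A was not tested.

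**Figure D3:**
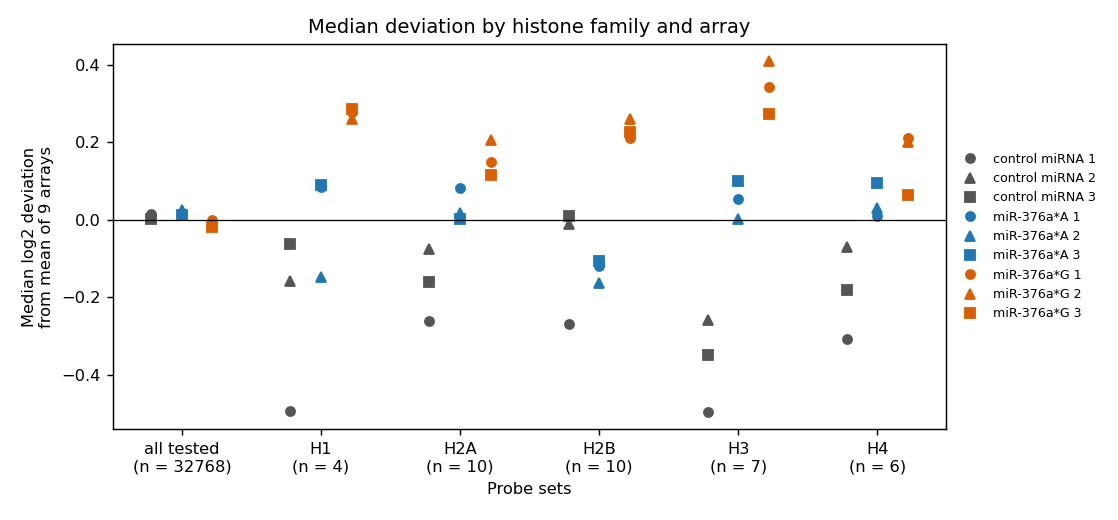
Median log2 deviation from the mean of the 9 arrays (vertical axis) for the tested probe sets of each histone family and for all 32768 tested probe sets; colours are groups and symbols are replicates. In every family the 3 miR-376a*G arrays lie above 0, with medians up to 0.41 in H3, while the medians over all tested probe sets stay within 0.03 of 0.

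Among H2A genes, 5 of 10 tested probe sets rose with miR-376a*G and 2 with miR-376a*A, against 11.5% and 10.3% of all tested. H2AC14 gave 16.9, 48.8 and 42.8 in the control, 39.2, 54.2 and 53.0 with miR-376a*A, and 65.1, 76.5 and 60.8 with miR-376a*G. Its rise of 0.73 ± 0.203 (SE, adjusted p = 0.018) had the widest error of those called. It ended without miR-376a*G replicate 2 and was 0.43 without control replicate 1 (adjusted p = 0.0228). H2AC17 gave 13.4, 22.3 and 13.8 in the control, 30.9, 20.9 and 20.4 with miR-376a*A, and 37.4, 36.4 and 35.2 with miR-376a*G. It rose by 0.70 (adjusted p = 0.00156) with miR-376a*G, and miR-376a*A replicate 1 stood well above the other arrays of its group. H2AC8 gave 7.66, 11.5 and 14.9, then 21.5, 17.8 and 18.5, then 28.6, 30.4 and 22.9 in the order control, A form and G form. It rose by 0.37 (adjusted p = 0.0403) and 0.67 (adjusted p = 0.00124), with an A-form call that ended under 12 of the settings tried. H2AC16 gave 11.6, 15.6 and 8.58 in the control, 17.8, 16.2 and 12.3 with miR-376a*A, and 28.0, 21.9 and 17.5 with miR-376a*G, where it rose by 0.46 (adjusted p = 0.0206).

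The remaining H2B genes went in different directions. H2BC9 gave 50.1, 70.1 and 78.8 in the control, 75.0, 85.5 and 79.6 with miR-376a*A, and 120, 111 and 124 with miR-376a*G. It rose by 0.72 ± 0.118 (SE, adjusted p = 0.000676) with miR-376a*G and differed by -0.49 (adjusted p = 0.0118) between the forms. H2BC14 gave 10.7, 12.5 and 12.7 in the control, 16.1, 19.2 and 15.9 with miR-376a*A, and 16.2, 22.4 and 25.4 with miR-376a*G, a rise of 0.41 (adjusted p = 0.0167) with the G form. H2BC4 passed only between the forms (-0.37, adjusted p = 0.0465), with 29.5, 27.9 and 26.8 in the control, 24.9, 21.9 and 19.9 with miR-376a*A, and 41.6, 25.6 and 33.8 with miR-376a*G. The spread of the G-form arrays was wide for this gene, and the call ended under 8 of the settings tried.

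H2BC21, the H2B gene on chromosome 1, fell with both forms. Its signal was 61.7, 64.4 and 59.7 in the control, 38.4, 36.0 and 42.2 with miR-376a*A, and 35.2, 32.7 and 38.3 with miR-376a*G. The control arrays were even and lay above all 6 others, and the forms overlapped. The log2 difference was -0.51 ± 0.0869 (SE, adjusted p = 0.00125) with miR-376a*A and -0.60 ± 0.0869 (SE, adjusted p = 0.000275) with miR-376a*G. Both calls were kept under every setting tried. The difference between the forms was 0.09, with a 95% interval of -0.09 to 0.28. H2BC21 is known as a clustered gene with a polyadenylated message in non-dividing cells, and it shares the octamer, TATAAA and CCAAT with H2BC12, as printed above.

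**Figure D4:**
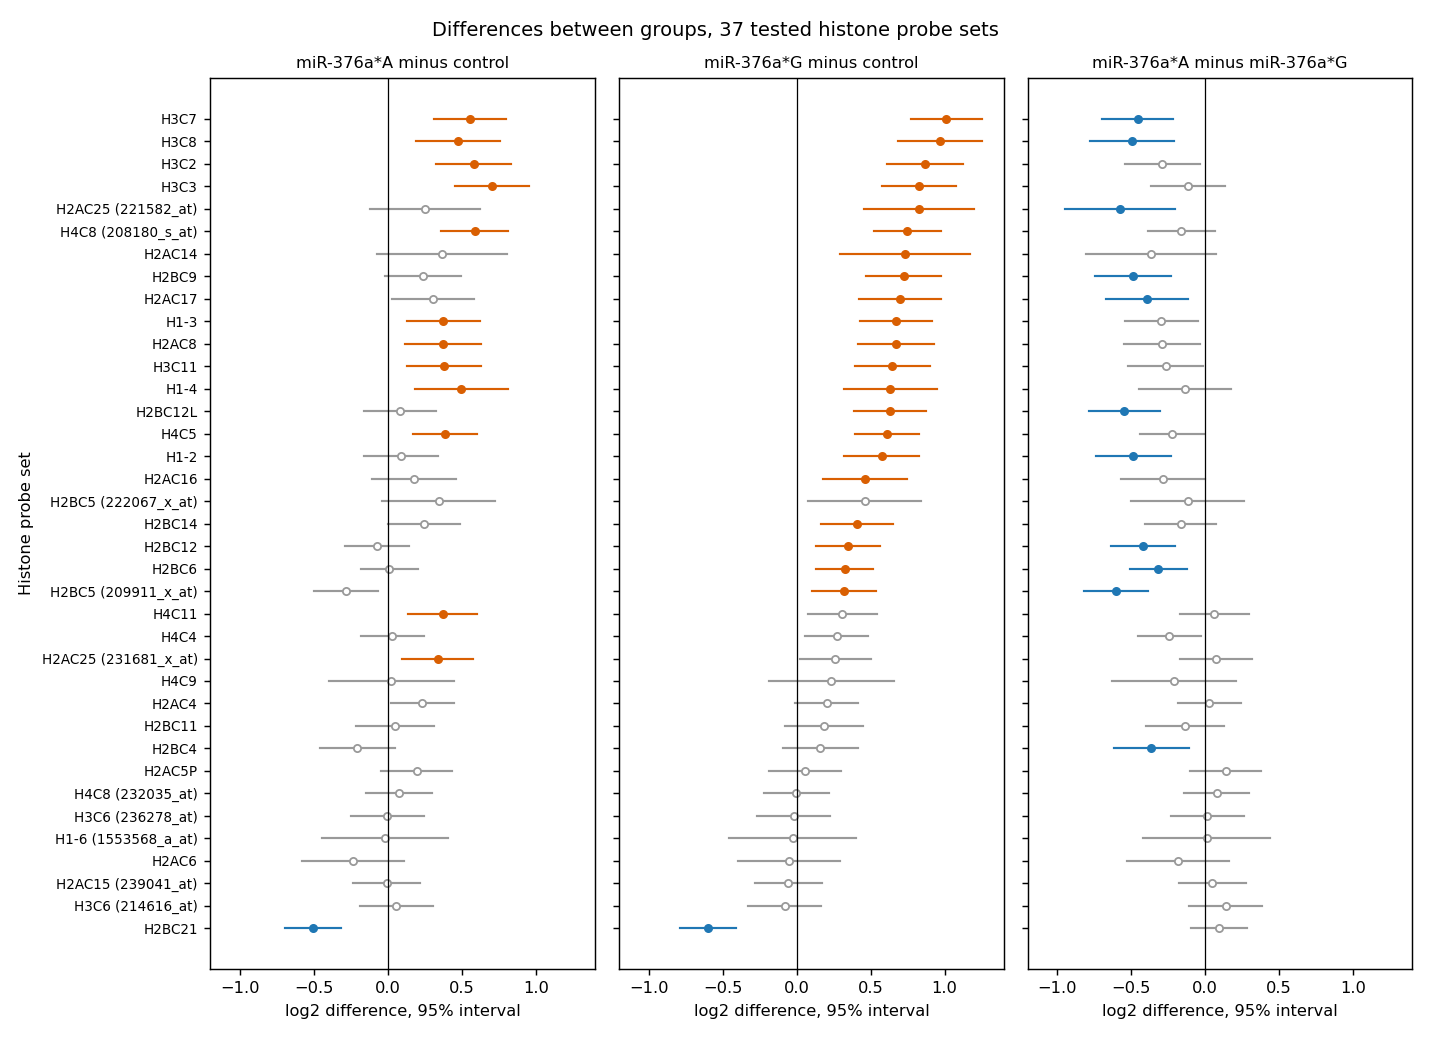
Log2 difference and its 95% interval (horizontal axis) for the 37 tested histone probe sets in the 3 comparisons, in the order of the miR-376a*G difference; orange points passed as higher, blue points as lower and grey points did not pass. The only blue point against the control is H2BC21, in both comparisons, and the right panel holds 11 blue and 0 orange points.

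Set side by side, 10 tested probe sets rose with both forms: H1-3, H1-4, H2AC8, H3C2, H3C3, H3C7, H3C8, H3C11, H4C5 and H4C8. Of these, H1-3, H2AC8, H3C3, H3C8 and H3C11 entered the test only through their higher groups. They also count among the intermediate probe sets below. The share of all tested probe sets that rose with both forms was not counted. A further 11 passed with miR-376a*G only, which include all 6 bright probe sets that rose, and 2 passed with miR-376a*A only. Of the bright probe sets 0 of 7 passed in either direction with miR-376a*A and 6 of 7 with miR-376a*G. Of the intermediate ones 12 of 30 rose with miR-376a*A and 15 of 30 with miR-376a*G, against 10.3% and 11.5% of all tested. In 19 of the 21 that rose with miR-376a*G the A-form mean lay between the control and the G-form mean, the exceptions being H2BC12 and the brighter H2BC5 probe set. Against the mean of control replicates 2 and 3 alone it lay between in 16, with H1-2, H2BC12L and H2BC6 as further exceptions. As the 21 were picked for a gap between the control and the G form, an A-form mean within it was favoured in advance. Over all 37 tested members the group means stood in the order control, A form and G form in 23. How often that order occurs over all tested probe sets was not counted, and the 37 include members that entered only through their higher groups. The direct test between the forms passed for 10 of the 21 that rose with miR-376a*G, while 7.95% of all tested probe sets passed as lower. That test reuses the miR-376a*G arrays for which the 21 were picked, so a pass as lower with miR-376a*A was favoured in advance. Groups did not overlap for 24 members as higher with miR-376a*G, 15 with miR-376a*A and 0 as higher with miR-376a*A than with miR-376a*G, against 17.8%, 19% and 23% of all tested probe sets. In the other direction the numbers were 1, 3 and 20, against 21.2%, 17.7% and 19%. Counted in either direction, groups did not overlap for 39.1%, 36.7% and 42% of all tested probe sets.

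Some members entered the test only through their higher groups. In 8 of the 37 (H1-3, H2AC5P, H2AC8, H3C3, H3C8, H3C11, H4C9 and a probe set of H3C6) the mean of at least 1 group was below the filter. Among the other 29, 16 rose and 1 fell with miR-376a*G, 7 rose and 1 fell with miR-376a*A, and 10 were lower and 0 higher with miR-376a*A than with miR-376a*G. With each array centred on its own median, 8 of the 37 rose and 2 fell with miR-376a*A, and 23 rose and 1 fell with miR-376a*G. The split of all tested probe sets under that centring was 2634 higher and 4343 lower for miR-376a*A against control, where it had been 3360 and 3628. For miR-376a*G against control it was 4112 higher and 4140 lower, where it had been 3768 and 4686. Between the forms it was 2407 higher and 3677 lower, where it had been 3338 and 2604. The medians of the histone members were 0.19, 0.43 and -0.29 after that centring.

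The count with miR-376a*A changed with the arrays used. It was 12 with all arrays, 6, 7 and 5 without miR-376a*A replicate 1, 2 or 3 and 7 without control replicate 1. Over all tested probe sets these higher calls numbered 3360, then 2349, 2216 and 2224, and 3751 without control replicate 1. The count of members lower with miR-376a*A than with miR-376a*G was 11, and 6 and 5 without miR-376a*A replicates 1 and 2, and 7, 6 and 6 without each miR-376a*G array in turn. Over all tested probe sets these lower calls numbered 2604, then 1800 and 1720, and then 1993, 1617 and 1662. The count of rises with miR-376a*G stayed between 15 and 24 when any array was left out, with the lowest value without miR-376a*G replicate 2. Without that array such calls over all tested probe sets went from 3768 to 2577. How much of these shifts comes from the smaller number of arrays was not tested. Single calls that ended when 1 array was left out are given here with the adjusted p reached. With miR-376a*A against control, H1-4 ended without any 1 of the miR-376a*A arrays (up to 0.081). There H3C8 ended without the third miR-376a*A array or either of control replicates 2 and 3 (up to 0.094). H4C11 ended there without control replicate 1 or either of miR-376a*A replicates 2 and 3 (up to 0.102), and H4C5 without miR-376a*A replicate 1 (0.0587). With miR-376a*G against control, H2AC16 was lost without control replicate 3 or either of miR-376a*G replicates 1 and 2 (up to 0.0895), and H2BC14 without miR-376a*G replicate 2 or 3 (up to 0.0778). Between the forms, H2AC25 ended without any miR-376a*A array or miR-376a*G replicate 2 or 3 (up to 0.137), H3C8 without replicate 1 or 2 of either form (up to 0.0876), and H3C7 without miR-376a*G replicate 2 (0.0619). In the same comparison H2BC12 ended without miR-376a*A replicate 2 (0.0513), H2BC9 without the first miR-376a*A array or the third miR-376a*G array (up to 0.0517), and H2BC6 and H2AC17 without any of several arrays (up to 0.109 and 0.161).

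The members that passed in no comparison numbered 12, of 11 genes. They include the dimmer H2BC5 probe set described above, and H2AC6, with 109, 82.5 and 127 in the control, 106, 93.7 and 64.8 with miR-376a*A, and 88.6, 100.4 and 114 with miR-376a*G. All groups of H2AC6 overlapped. H2AC4 had 34.8, 48.8 and 38.8 in the control, and both forms stood between 47.0 and 52.1 (0.23 and 0.20, adjusted p = 0.114 and 0.15). H4C4 had 20.0 to 21.8 with miR-376a*G, above 13.1 to 15.3 in the control (0.27, adjusted p = 0.059). H1-6, a testis-type linker histone gene, and H2AC15, H2BC11, H4C9 and the pseudogene H2AC5P had mean signals of 12.4 to 15.8, near the filter.

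The 14 dim members had mean signals of 1.36 to 9.66. In a fit without the filter 2 passed as higher with miR-376a*G and 1 as lower with miR-376a*A, against 5.8% and 5.41% of all 54613 probe sets in that fit. H3C1 rose by 0.42 ± 0.0758 (SE, adjusted p = 0.00596), from a mean signal of 6.21 in the control to 13.7 with miR-376a*G. H2BC3 rose by 0.57 (adjusted p = 0.0469), from 4.33 to 14.2. A dim H1-6 probe set was lower with miR-376a*A (-0.44, adjusted p = 0.0411), at 2.73 against 9.67. Such signals are far below the middle of the array, and H1-1, H1-5, H2BC1, H2BC13, H4C1, H4C7 and H4C10P had no mean above 8.25 in any group.

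The probe sets given to several histone genes, which are not members, were read as a comparison. Of 15 that passed the filter, 11 rose with miR-376a*G and 4 with miR-376a*A, 0 fell, and 6 were lower with miR-376a*A than with miR-376a*G. Of all tested probe sets 11.5% and 10.3% rose, 14.3% and 11.1% fell, and 7.95% were lower between the forms. The median log2 differences of these 15 probe sets were 0.58, 0.21 and -0.32. These may hold signal of the same transcripts as the members, so they are no independent measurement.

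Other genes that make or handle histones were counted in the same fit, where 10.3% of all tested probe sets were higher and 11.1% lower with miR-376a*A, and 11.5% and 14.3% with miR-376a*G. Of 23 genes of histone message 3' processing, 2 rose and 5 fell with miR-376a*A, and 1 rose and 3 fell with miR-376a*G. SLBP, which binds the stem-loop, was bright and stood at -0.12 ± 0.054 (SE, adjusted p = 0.143) and -0.07 (adjusted p = 0.423). LSM11, a part of the U7 snRNP that directs the cut, fell by 0.67 with miR-376a*A on the log2 scale (adjusted p = 0.000171), and so did CPSF3, the nuclease of the cut, by 0.45 (adjusted p = 0.00608). CSTF3 rose by 0.46 with miR-376a*G (adjusted p = 0.00743), while ERI1, an exonuclease that trims histone message ends, fell by 0.43 (adjusted p = 0.00463). ERI1 stood at 0.06 with miR-376a*A (adjusted p = 0.704). SRRT fell by 0.23 (adjusted p = 0.0282) and 0.295 (adjusted p = 0.00627) with the A and G form.

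Among 16 tested regulators of histone transcription 0 rose and 3 fell with miR-376a*A, and 3 rose and 3 fell with miR-376a*G. NPAT, the cyclin E-CDK2 substrate that switches on histone genes, fell by 0.41 (adjusted p = 0.00265) and 0.35 (adjusted p = 0.00605) with the A and G form. TRIM28 fell by 0.74 (adjusted p = 1e-05) and 0.58 (adjusted p = 5.5e-05). The cyclin gene CCNE2 fell by 0.67 with miR-376a*A (adjusted p = 5.7e-05) and stood at 0.16 with miR-376a*G (adjusted p = 0.144), with a difference of -0.83 between the forms (adjusted p = 8e-06). YY1 fell by 0.31 with miR-376a*G (adjusted p = 0.00323) and stood at -0.10 with miR-376a*A (adjusted p = 0.308). NFYB, a subunit of the factor that binds CCAAT, rose by 0.29 with miR-376a*G (adjusted p = 0.0139) and differed by -0.38 between the forms (adjusted p = 0.00404). The other subunit genes NFYA and NFYC stood at 0.32 (adjusted p = 0.0139) and -0.25 (adjusted p = 0.0628) with miR-376a*G.

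Of 21 histone chaperone genes 3 rose and 5 fell with miR-376a*A, and 5 rose and 2 fell with miR-376a*G. ASF1A, an H3-H4 chaperone, rose by 0.70 (adjusted p = 9.8e-05) and 0.28 (adjusted p = 0.0292). The chromatin assembly gene CHAF1A fell by 0.68 with miR-376a*G (adjusted p = 0.00024) and stood at -0.14 with miR-376a*A (adjusted p = 0.331). ATRX fell by 0.30 (adjusted p = 0.0133) and 0.45 (adjusted p = 0.00088) with the A and G form. HAT1 rose by 0.27 with miR-376a*G (adjusted p = 0.00303), and so did NASP, which holds the soluble H3-H4 pool, by 0.31 (adjusted p = 0.00508). Of 8 tested variant histone genes, which are made outside S phase as well, 1 rose with miR-376a*A, and 2 rose and 2 fell with miR-376a*G. The risers were CENPA, the centromere H3 (0.35 and 0.85, adjusted p = 0.013 and 1.8e-05), and the linker variant H1-10 with miR-376a*G (0.62, adjusted p = 0.000662). H1-10 stood at 0.10 with miR-376a*A (adjusted p = 0.528).

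Among 23 tested S phase genes 3 rose and 4 fell with miR-376a*A, and 5 rose and 1 fell with miR-376a*G. Between the forms 1 was higher and 7 lower with miR-376a*A, against 10.2% and 7.95% of all tested probe sets. The medians of this list were 0.02, 0.11 and -0.14, against 0.23, 0.41 and -0.23 for the tested histone members. GINS2, of the replicative helicase, rose by 0.53 (adjusted p = 0.00102) and 0.70 (adjusted p = 8.9e-05). The primase gene PRIM1 rose by 0.44 with miR-376a*G (adjusted p = 0.000863) and stood at 0.02 with miR-376a*A (adjusted p = 0.891). MCM3 fell by 0.34 with miR-376a*G (adjusted p = 0.00304). The part of the cell cycle in the histone differences was not tested.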

How the data were processed

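Each of the 9 samples gave 1 array. Each deposited value is the signal intensity of a probe set on a linear scale, and every array has the same trimmed mean, per the values. The submitters' processing notes name GCOS 1.4.0.036, and no source used here states its algorithm or scaling target. Because each array's average is fixed, a change common to all transcripts would not show. No pair of arrays was identical. Of 54675 rows 62 array controls were left out. Groups came from the sample titles.

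Values were analysed as log2(signal + 16). Probe sets whose mean over the 9 arrays was at or above the 40th percentile (4.771) were kept, 32768 in all, and fitted over all 9 arrays in R 4.3.3 by limma 3.58.1 (lmFit, then eBayes with an intensity trend), with 6 residual degrees of freedom and a prior of 6.72. P-values are two-sided with Benjamini-Hochberg adjustment over all probe sets in each of 3 comparisons, and a probe set passed under 0.05. Every bright member and each intermediate member that passed, up to 25 probe sets by p, is described singly, with values on every array. Other lists give up to 3 genes with the smallest p per comparison, not always all 3. Any further gene, such as SLBP, NASP or NFYC, was chosen for its role. H2AC6, H2AC4 and H4C4, which passed in no comparison, were picked after their values were seen. The members and lists were chosen with earlier results of these data known. Symbols of all 51 members matched RefSeq by Entrez identifier. Tables and figures used Python 3.11.15, pandas 2.3.3 and matplotlib 3.10.9.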

Additional observations from a re-analysis of the deposited data

Results flagged for a closer look

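The responses of 11 histone probe sets to the 2 forms differed in the limma test of miR-376a*A against miR-376a*G. In all 11 the signal was lower with miR-376a*A. The log2 differences were -0.42 for H2BC12, -0.55 for H2BC12L, -0.49 for H1-2, -0.32 for H2BC6, -0.60 for the brighter H2BC5 probe set and -0.58 for the brighter H2AC25 probe set among the bright probe sets. They were -0.49 for H2BC9, -0.46 for H3C7, -0.37 for H2BC4, -0.40 for H2AC17 and -0.50 for H3C8 among the intermediate ones. A difference between the responses equals the difference between the forms, since both share the control arrays. Of these calls, those of H1-2, H2BC12L and H2BC5 held in every setting tried.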

How the results depend on the processing

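With all arrays and the settings described, 12 histone probe sets rose and 1 fell with miR-376a*A, 21 and 1 with miR-376a*G, and 0 and 11 with miR-376a*A against miR-376a*G. Without the filter the counts were 5 and 2 for miR-376a*A, and 7 were lower between the forms. The shares of all probe sets in that fit were 4.74%, 5.41% and 3.93%. With a stricter filter, which left 14 members, 2 were higher and 2 lower with miR-376a*A, 10 higher with miR-376a*G and 7 lower between the forms. Of all 21845 probe sets in that fit these numbers were 3184, 3568, 3593 and 2624. With only the groups compared in the fit 6 were higher with miR-376a*A, and with arrays centred on their median 2 were lower. Of all 32768 tested probe sets these numbers were 2548 and 4343. Leaving out 1 array gave 5 to 13 higher and 1 to 3 lower with miR-376a*A, 15 to 24 higher and 1 lower with miR-376a*G, and 0 higher and 5 to 13 lower between the forms. The cause of these shifts was not tested. The numbers of members called with an offset of 1 or 64 were within 1.5 times those given.

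With the replicate block the counts were 10 and 1, 23 and 1, and 0 and 10. Of all 32768 tested probe sets these numbers were 3129 and 3301, 3551 and 4401, and 3058 and 2339. Replicate numbers did not pair the samples: deviations of same-numbered arrays correlated at -0.10 to 0.06 over 9 pairs, and of others at -0.12 to 0.13. No called value changed direction. The small miR-376a*A differences against control of H2BC12L and H1-2 turned to -0.083 and -0.083 without control replicate 1, in ranges of -0.083 to 0.18 and -0.083 to 0.20 over the arrays left out. That of H2BC6 ranged from -0.066 to 0.087 over the arrays left out and was -0.031 with median centring. With 3 arrays a group, precision is limited by their number, and signals near the filter by background.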
